A study of Mus musculus with 15 samples.

Results

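Cells that carried OPA1 V465F were compared with cells that carried OPA1 V560F, as 3 libraries a side and 6 of the 15 libraries of the series. The 6 libraries were chosen by their labelled genotype and not by any measured value. All came from N2a, a mouse neuroblastoma line of the ATCC collection, on day 3 after small interfering RNA (siRNA) at 50 nM and a plasmid had been delivered together. Both groups received the same Opa1 siRNA, so the knockdown is common to them, and they differ in the amino acid substitution encoded by the plasmid. Of the other 9 libraries, 3 had Opa1 siRNA with wild-type OPA1, 3 had Opa1 siRNA with a control plasmid (the knockdown group), and 3 had control siRNA with a control plasmid. These 9 entered the fit to estimate the spread between replicates. The comparison asks whether the transcriptomes under the 2 substitutions differ, since the title of the series states that the effects of OPA1 mutations depend on the protein domain. The labels do not give the species of the inserted coding sequence, the promoter that drove it or whether the 3 libraries of a group were separate cultures. The p-values therefore rest on a spread between libraries that may be technical.

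OPA1 is a dynamin-related GTPase of the inner mitochondrial membrane. It fuses inner membranes after mitofusins have joined the outer ones, and it holds the cristae junctions that keep cytochrome c inside. Its loss fragments mitochondria and lowers the threshold for apoptosis, and heterozygous mutations cause dominant optic atrophy, in which retinal ganglion cells degenerate.

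The codons named by the substitutions are shown in their mouse context, because they place both changes in the gene under study. In the GENCODE M21 transcript Opa1-206, which has 960 codons and lies on the plus strand of chromosome 16 (build GRCm38), the codons at both positions read valine. The transcript was picked for that reason. At the same positions Opa1-201 and Opa1-205 read ATT and AGA, and Opa1-207 reads AAT and TTT. The capitals mark the valine codon, and each line has 12 bases on either side of it.
V465 codon: agaaccatatttGTTttgaccaaagta
V560 codon: gttcgagagtcaGTTgaacaacaggct
The first stretch is chr16:29611975-29612001 in coding exon 14 of 29, and the second is chr16:29615125-29615151 in exon 17. The V465 codon begins at base 1393 of the coding sequence, which is the number the submitters' library names carry for V465F. The names of the V560F libraries carry the first base of the V560 codon in the same way. The residue number alone fixes that base, so the match says nothing about the transcript or species of the insert. Both codons read GTT. The deposited counts were made on the newer build GRCm39, and these coordinates were used for nothing else.

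Opa1 itself (Entrez gene 74143) was read first. Levels here are CPM, counts scaled to a common library size by the TMM method. Opa1 stood at 33.6, 34.8 and 33.4 CPM in the V465F libraries and at 35.8, 27.3 and 33.0 CPM in the V560F libraries. The groups overlapped, and the lowest value was that of V560F replicate 2. The means were 33.9 ± 0.723 and 32.0 ± 4.28 CPM (SD, n = 3 each), against 95.9 ± 4.94 CPM in control siRNA libraries. The log2 fold change, V465F minus V560F, was 0.0836 ± 0.0891 (SE), with a 95% interval of -0.101 to 0.268 (edgeR adjusted p = 0.646; exact two-sided permutation p = 0.7). Without V560F replicate 2 its sign turned, to -0.0181 (edgeR adjusted p = 0.958). Knockdown libraries, with a control plasmid, had 36.8 ± 2.52 CPM, and wild-type OPA1 libraries had 31.4 ± 2.27 CPM. Both mutant groups thus had a low Opa1 RNA level, with means no higher than that of the knockdown libraries. Any share of these counts that came from the plasmid cannot be told apart.

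The state of the libraries is given before the gene results because V560F replicate 2 stood apart. Counts totalled 20070123 to 22215748 per library. As a measure of distance between libraries, the root mean square log2 difference was taken over 6741 genes with a mean of at least 5 FPKM, the deposited value scaled by gene length and library total. It was 0.153 between V560F replicates 1 and 3, but 0.276 and 0.285 between each of these and replicate 2. The V465F libraries lay 0.127 to 0.144 from one another. They lay 0.135 to 0.194 (median 0.155, 6 pairs) from V560F replicates 1 and 3, and 0.283 to 0.326 (3 pairs) from V560F replicate 2. Distances to the wild-type OPA1 libraries had medians of 0.308 for V465F and 0.371 for V560F.

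Several measures of the libraries differed between the groups. The trend with transcript length, in log2 level per log10 of length, was -0.219, -0.229 and -0.304 in V465F and -0.309, -0.820 and -0.315 in V560F. Every V465F value was thus above every V560F value, with 1 V560F library far below the rest. The 50 most abundant genes held 21.75 ± 0.355% of counts in V465F and 23.26 ± 0.841% in V560F, and the 13 mitochondrially encoded genes held 6.859 ± 0.0745% and 7.464 ± 0.213%. For each of these 3 measures the libraries did not overlap, and p was 0.1 by the exact permutation test (two-sided, 3 against 3), which can give no smaller value. Scores on the first principal component did overlap, at 30.05 ± 4.89 and 40.79 ± 9.62 (exact permutation p = 0.2). Values called corrected come from a fit that removes, library by library, the trend with length and GC content. Fold changes and calls against wild-type OPA1 come from the uncorrected fit.

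**Figure D1:**
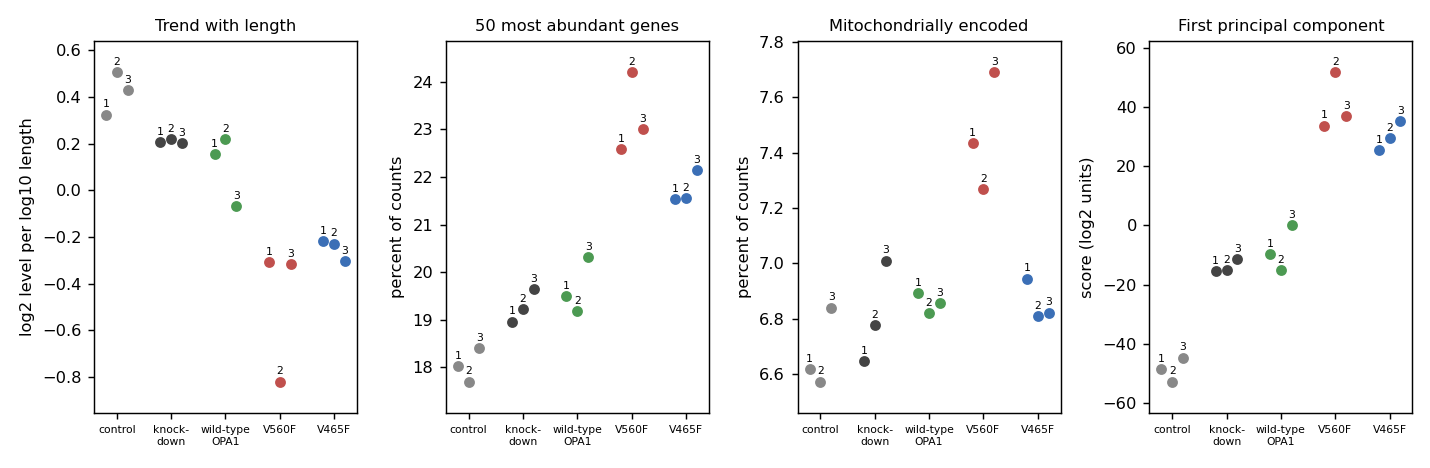
Measures of the 15 libraries by group, with the replicate number beside each point: trend with transcript length (log2 level per log10 length), percent of counts in the 50 most abundant genes, percent in mitochondrially encoded genes, and first principal component score. V560F replicate 2 has the lowest slope, -0.820, and the highest score, while the V465F slopes lie between -0.304 and -0.219.

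Markers of the line were present in both groups. All 10 neuroblastoma and neuron markers were measured, with a summed level of 2120 to 2160 CPM in V465F and 2160 to 2370 CPM in V560F. Fibroblast markers summed to 4.05 to 6.04 CPM over the 6 libraries, with Col1a2 and Col3a1 at 0, glial markers to 10.4 to 17.3 CPM, with S100b at 0, and endothelial markers to 9.59 to 12.8 CPM, with Cdh5 at 0. Epithelial and immune markers summed to less than 1 CPM in every library, at most 0.398 and 0.721.

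Across the transcriptome 1 gene was past the threshold between the 2 substitutions. Of 13074 genes tested, edgeR called Slbp, which was lower with V465F, and no other (0.00765% of genes at an adjusted p under 0.05). The second smallest adjusted p was 0.069. With 1 mutant library left out, edgeR called 0 to 818 genes, the most without V560F replicate 1. At an unadjusted p under 0.05 there were 2373 genes (18.2%), 975 higher (7.46%) and 1398 lower (10.7%) with V465F. The 6 libraries did not overlap in 2399 genes (18.3%), 972 higher (7.43%) and 1427 lower (10.9%). DESeq2 called 144 genes (1.10%), 48 higher (0.367%) and 96 lower (0.734%). The edgeR fit corrected for length and GC content called 55 (0.421%), 20 higher (0.153%) and 35 lower (0.268%).

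The size of the differences was small beside those from wild-type OPA1. The median absolute log2 fold change was 0.134 between the mutants, where it was 0.316 between V560F and wild-type OPA1 and 0.249 between V465F and wild-type OPA1. Those wild-type comparisons called 6464 genes (49.4%) and 4988 genes (38.2%). They share the wild-type libraries with each other and the mutant libraries with the present comparison. None of these values is corrected for length. The slope with length was 0.156, 0.220 and -0.0678 in the wild-type OPA1 libraries, above every mutant library. Its part in these sizes and calls was not tested. For 84.6% of genes the 95% interval of V465F against V560F lay within a 2-fold change either way, and for 70.9% within 1.5-fold. The median half-width of that interval was 0.228 on the log2 scale, or 1.17-fold. Of the 220 genes with a fitted difference of at least 2-fold, 11 had a mean of at least 1 FPKM.

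**Figure D2:**
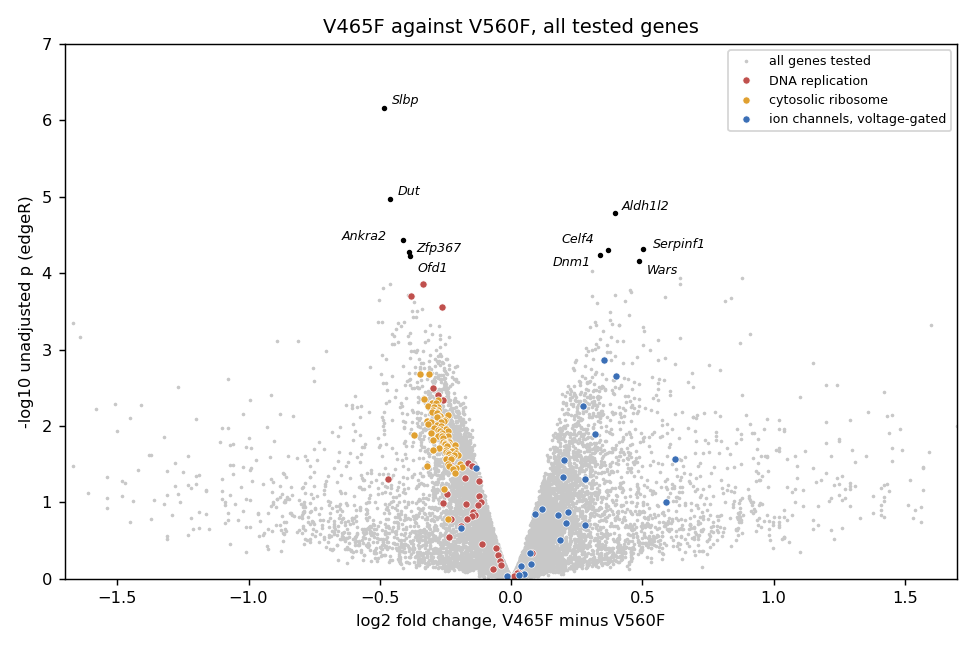
Each point is 1 of the 13074 tested genes, with the log2 fold change, V465F minus V560F, on the x axis and -log10 of the unadjusted edgeR p on the y axis; 33 genes beyond 1.7 either way fall outside the axes. Coloured points are DNA replication, cytosolic ribosome and ion channel genes, and the 10 genes with an adjusted p under 0.1 are named.

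Slbp encodes the stem-loop binding protein, which binds the hairpin that ends replication-dependent histone mRNAs and is needed for their processing and translation, and its protein is made for S phase and destroyed after it. Slbp (Entrez gene 20492, chromosome 5) stood at 50.9, 49.5 and 53.8 CPM in V465F and at 66.8, 75.3 and 73.4 CPM in V560F. The groups did not overlap, and the V465F values lay near those of the wild-type OPA1 libraries (46.6 ± 2.70 CPM) and the knockdown libraries (49.2 ± 3.04 CPM). Control siRNA libraries had 38.7 ± 0.61 CPM, below every library of either mutant. The means were 51.4 ± 2.18 and 71.8 ± 4.48 CPM (n = 3 each), a log2 fold change of -0.48 ± 0.0704 with a 95% interval of -0.629 to -0.337, or 1.4-fold (edgeR adjusted p = 0.00889). The corrected value was -0.41 (adjusted p = 0.00456). Against wild-type OPA1, the values were 0.63 for V560F (edgeR adjusted p = 6.2e-07) and 0.14 for V465F (adjusted p = 0.117).

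The Slbp call depended on single libraries. It was lost without V465F replicate 1 (edgeR adjusted p = 0.129), without V465F replicate 2 (0.134) and without V560F replicate 3 (0.0575), with the log2 fold change between -0.53 and -0.45 in all 6 fits that left out 1 library. It was also lost when only the 6 mutant libraries were fitted (adjusted p = 0.444), and it held in 13 of 18 alternatives. Slbp overlaps Gm10459 on the opposite strand, and the strand setting of the counting is not given in the sources used here.

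The promoter of Slbp is shown with that of Mcm3, the DNA replication gene with the lowest p, because both genes were lower with V465F. The sequences are the 250 bases before the RefSeq start (build GRCm38.p6), read 5′ to 3′ on the gene's strand, and capitals mark CCAAT or its reverse complement ATTGG, the box bound by the NF-Y factor.
Slbp: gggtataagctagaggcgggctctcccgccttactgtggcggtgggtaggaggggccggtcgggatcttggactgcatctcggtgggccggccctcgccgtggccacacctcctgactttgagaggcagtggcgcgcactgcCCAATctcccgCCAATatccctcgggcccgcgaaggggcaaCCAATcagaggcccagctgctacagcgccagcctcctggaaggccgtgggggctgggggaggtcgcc
Mcm3: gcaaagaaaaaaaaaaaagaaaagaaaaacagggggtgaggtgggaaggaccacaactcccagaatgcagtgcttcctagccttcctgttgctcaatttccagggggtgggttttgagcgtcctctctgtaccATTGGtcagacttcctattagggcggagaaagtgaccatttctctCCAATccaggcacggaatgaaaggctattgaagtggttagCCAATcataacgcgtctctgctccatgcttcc
The Slbp window is chr5:33652575-33652824 and the Mcm3 window chr1:20820313-20820562, both on the minus strand. Each held 3 CCAAT words on either strand, none overlapping another, which begin 108, 97 and 67 bases before the Slbp start and 117, 72 and 32 bases before the Mcm3 start. At least 1 CCAAT stood in 33.8% of 32851 promoter windows of that length, and at least 3 in 2.79%. Neither window held one of 4 E2F words searched on both strands, TTTCCCGC, TTTCGCGC, TTTGCCGC and TTTGGCGC, of which at least 1 stood in 1.86% of windows.

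DNA replication genes lay lower with V465F as a list, with no single member past the threshold. The list holds the origin, helicase, polymerase and nucleotide supply genes of S phase. Of 41 members tested, 37 were below 0 and 4 above, against 6951 below and 6123 above among all genes. Libraries did not overlap for 15 members, all lower, where 10.9% of all genes were lower without overlap. The median log2 fold change was -0.163, against -0.0157 over all genes, and the corrected median was -0.134. In the corrected fit 2 of the 41 members, Mcm3 and Rrm2, were called lower, where 0.268% of all genes were. With 1 mutant library left out the median ranged from -0.19 to -0.136. Against wild-type OPA1 the list was higher with each mutant, with medians of 0.386 for V560F and 0.211 for V465F. There 28 of the 41 were called higher with V560F and 18 with V465F, where 24.5% and 18.1% of all genes were. In bulk RNA, fewer cells in S phase and less RNA per cell cannot be told apart.

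The leading members were genes of the replicative helicase, its loading and nucleotide supply. Mcm3, a subunit of the MCM2 to MCM7 helicase, stood at 54.4, 63.3 and 65.1 CPM in V465F and at 80.5, 75.2 and 74.9 CPM in V560F, a log2 fold change of -0.33 ± 0.0727 (edgeR adjusted p = 0.107). The highest V465F library was below the lowest V560F library. Rrm2, the regulated subunit of ribonucleotide reductase, stood at 31.2, 31.0 and 34.9 CPM against 42.2, 47.2 and 37.3 CPM (-0.38 ± 0.0860, edgeR adjusted p = 0.107). Cdt1, which loads the helicase on origins, stood at 77.9, 79.5 and 79.2 CPM against 95.9, 98.8 and 89.5 CPM (-0.26 ± 0.0612, edgeR adjusted p = 0.116). In all 3 genes every V465F library was below every V560F library. The helicase genes Mcm4 and Mcm5 were at -0.28 and -0.25, Tk1 (thymidine kinase) at -0.30, and Cdc45 at -0.28, each without overlap. Pcna, the polymerase clamp, was at -0.26, but its libraries overlapped and its corrected value was -0.11. The 4 members above 0 were Pole, E2f1, Rpa2 and Rfc4, at most 0.0810.

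**Figure D3:**
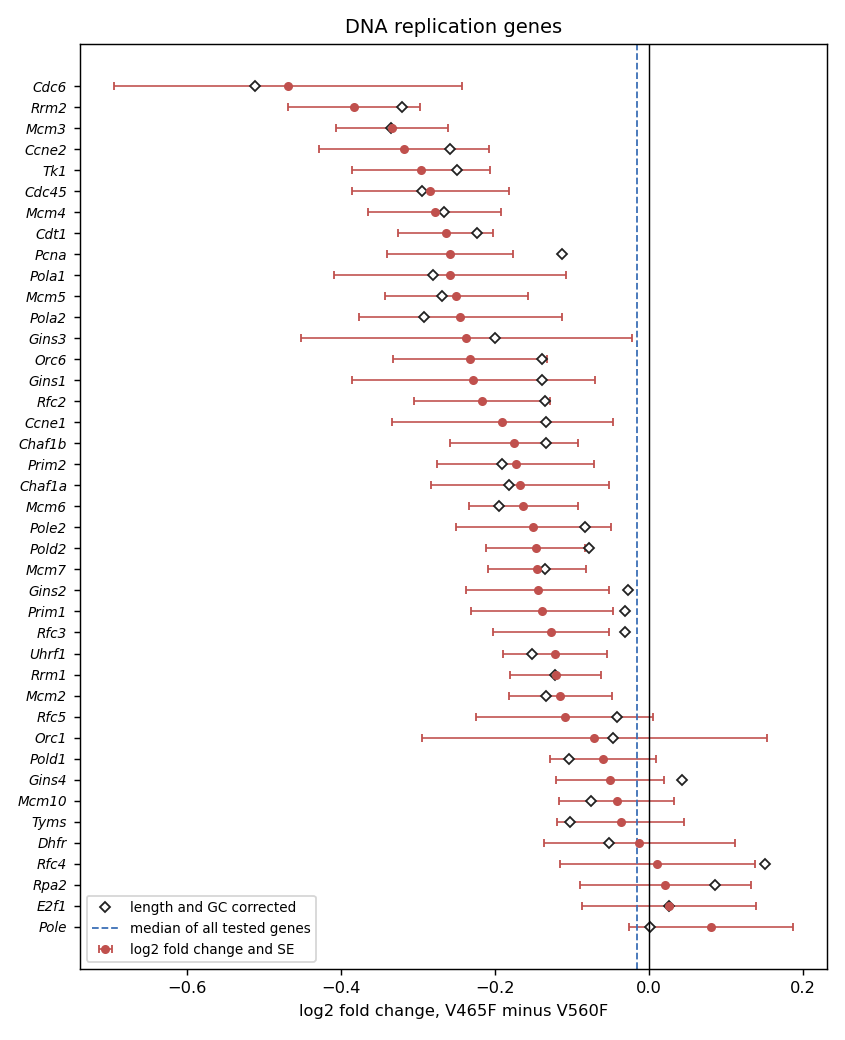
Log2 fold change, V465F minus V560F, of the 41 tested DNA replication genes (points, with SE as bars), and the same value after the length and GC correction (open diamonds). Most values lie left of 0, with 37 below and 4 above, and the dashed line is the median of all tested genes, -0.0157.

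Genes outside the lists with an adjusted p under 0.1 were picked after their values were seen. Dut, the dUTPase that keeps uracil out of DNA, stood at 60.8, 56.2 and 62.6 CPM in V465F and 75.3, 92.3 and 79.5 CPM in V560F (log2 fold change -0.46 ± 0.0812, edgeR adjusted p = 0.069). Zfp367, a zinc finger factor gene that overlaps Gm47513 on the other strand, stood at 54.8, 56.5 and 54.9 CPM against 75.6, 72.6 and 69.3 CPM (-0.39 ± 0.0777, adjusted p = 0.0853). Neither gene overlapped between the groups, and both were called lower after the correction (adjusted p = 0.00753 and 0.0262) and by DESeq2. Ankra2 (-0.41) and the centrosomal gene Ofd1 (-0.38, overlapping Trappc2 on the other strand) also had an edgeR adjusted p of 0.0853. On the higher side were Serpinf1, Celf4 and Dnm1, beside Aldh1l2 and Wars, which belong to the integrated stress response list. Serpinf1, which encodes the secreted neurotrophic factor PEDF, stood at 29.2, 25.0 and 29.3 CPM against 18.7, 19.1 and 21.1 CPM (0.50 ± 0.10, edgeR adjusted p = 0.0853). The RNA-binding protein gene Celf4 was at 0.37, and Dnm1, the dynamin of synaptic vesicle endocytosis, at 0.34 (edgeR adjusted p = 0.0853 for both). Dnm1 stood at 73.9 ± 2.65 CPM in V465F, 58.4 ± 3.08 in V560F and 72.9 ± 4.23 in wild-type OPA1 libraries.

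**Figure D4:**
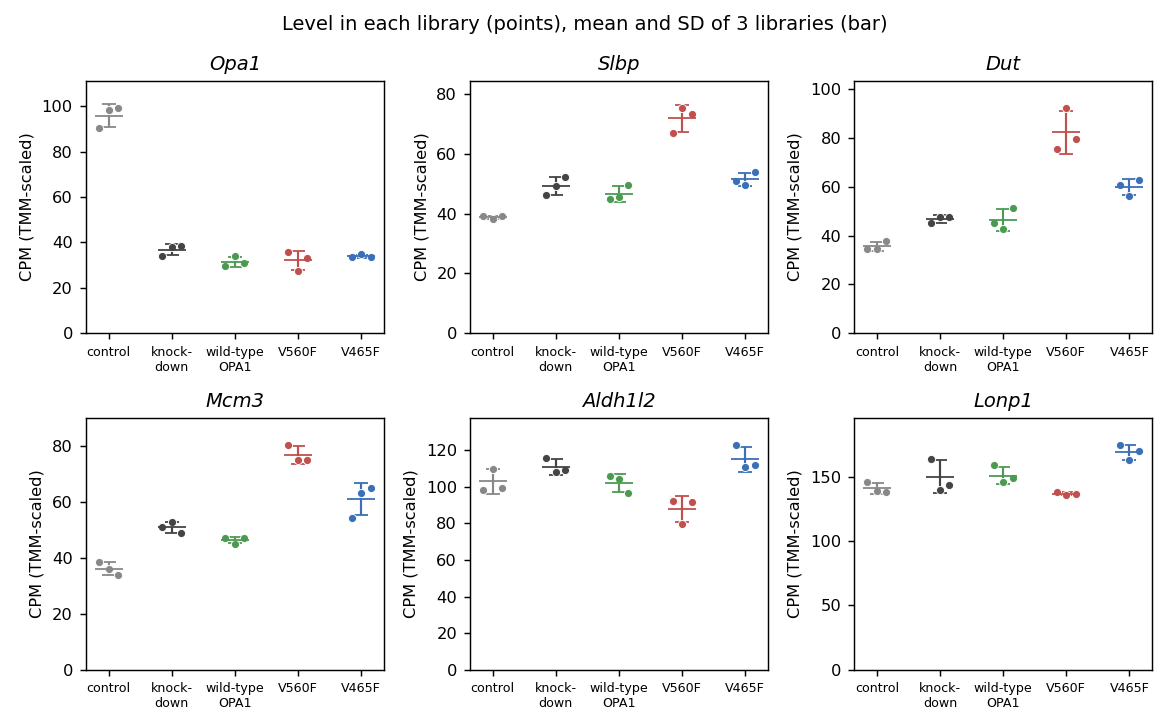
Level of 6 genes in each of the 15 libraries (points), in TMM-scaled CPM from 0, with the mean and SD of the 3 libraries of a group. For Slbp, Dut, Mcm3, Aldh1l2 and Lonp1 the V465F and V560F libraries do not overlap, while for Opa1 they do.

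The histone list pairs Slbp with the RNAs it binds. Of 14 members tested, which include Slbp and the replication-independent linker histone gene H1f0, 13 were below 0 and 1, H1f5, above. The median was -0.42. After the correction it was -0.28, with 10 below 0 and 4 above (71.4% below, against 54.3% of all genes). For 5 members, Slbp among them, the libraries did not overlap, all lower, where 10.9% of all genes were. The median was -0.279 without V465F replicate 1 and -0.221 with the filter of 5 FPKM. H1f0 stood at 302, 327 and 328 CPM in V465F and 345, 425 and 372 CPM in V560F (-0.25 ± 0.0737, edgeR adjusted p = 0.149). H1f2, a linker histone, stood at 55.8, 60.2 and 68.2 CPM against 66.9, 95.8 and 72.8 CPM and overlapped. Most others were scarce, such as H2bc21, at 2.17, 3.17 and 3.68 CPM against 4.13, 4.24 and 4.42 CPM. Replication-dependent histone mRNAs end in a stem-loop and have no poly(A) tail. Whether the libraries selected poly(A) RNA is not given in the sources used here, and the histone genes are near-identical copies among which reads may be split.

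G2 and mitosis genes were also more often below 0, with smaller values. Of 37 tested, 29 were below 0 and 8 above, with a median of -0.0937 that was -0.0996 after the correction. In the corrected fit 25 were below 0 and 12 above (67.6% below, against 54.3% of all genes). With plain library totals the median was -0.00131, where that of all genes was 0.0761. For 13 members the libraries did not overlap, all lower, where 10.9% of all genes were. Cdk1, the kinase that drives entry into mitosis, stood at 206, 213 and 215 CPM in V465F and 239, 282 and 244 CPM in V560F (-0.27 ± 0.0725, edgeR adjusted p = 0.137), and was called after the correction (adjusted p = 0.0466). Ccna2 (cyclin A2) stood at 205, 207 and 210 CPM against 241, 235 and 227 CPM, a narrow spread within each group (-0.18 ± 0.0579, edgeR adjusted p = 0.155). Top2a, the topoisomerase that untangles chromosomes, was at -0.17 and Cdc20, an activator of the anaphase complex, at -0.22, both without overlap. Against wild-type OPA1, 27 of the 37 were called higher with V560F and 19 with V465F, where 24.5% and 18.1% of all genes were.

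Cytosolic ribosomal protein genes were lower with V465F in every member tested, and the values shrank with the correction. All 78 were below 0, with a median of -0.258 and a range of -0.371 to -0.187. For 50 the libraries did not overlap, all lower, where 10.9% of all genes were. The corrected median was -0.112, with 77 of 78 below 0, and none was called in either fit. Without V560F replicate 2 the median of the list was -0.109, with 78 of 78 still below 0. These are short transcripts, and the slope with length, lower in V560F, moved the same way; its part in the result was not tested. Against wild-type OPA1 all 78 were called higher with each mutant, where 24.5% (V560F) and 18.1% (V465F) of all genes were. The medians, not corrected for length, were 0.71 for V560F and 0.45 for V465F. The slope with length was 0.156, 0.220 and -0.0678 in the wild-type OPA1 libraries, above every mutant library. Its part in these calls was not tested either.

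Respiratory chain genes shared that pattern, but their medians came near 0 after the correction. The nuclear genes of complex I, which oxidises NADH, were below 0 in 34 of 36 cases (median -0.181), and 9 did not overlap, all lower, where 10.9% of all genes were. Those of complexes II to V were below 0 in 38 of 39 cases (median -0.224), and 18 did not overlap. The corrected medians were -0.0228 and -0.0433, with 63.9% and 79.5% of members below 0, against 54.3% of all genes. Uqcr10, a small subunit of complex III, stood at 88.2, 89.6 and 87.4 CPM in V465F and 101, 131 and 96.9 CPM in V560F (-0.31 ± 0.0876, edgeR adjusted p = 0.147; corrected -0.095). Ndufa13 of complex I, which overlaps Tssk6 on the other strand, was at 106, 99.9 and 114 CPM against 116, 162 and 120 CPM (-0.31 ± 0.0965, edgeR adjusted p = 0.151; corrected -0.19). In both genes V560F replicate 2 was the highest of the 6, and without that library the list medians were -0.0393 and -0.092.

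None of the 13 genes encoded by mitochondrial DNA was called. Of these, 11 were below 0, with a median of -0.219, and 7 had libraries that did not overlap, all lower, where 10.9% of all genes were. After the correction the median was -0.0421 with 8 below 0, and without V560F replicate 2 it was -0.164, also with 8 below 0. COX1, the catalytic subunit of cytochrome oxidase, stood at 52300, 52000 and 54600 CPM in V465F and 59300, 61700 and 62400 CPM in V560F (-0.21 ± 0.0685, edgeR adjusted p = 0.156). ND5 of complex I stood at 6220, 6200 and 5950 CPM against 6810, 7520 and 7310 CPM (-0.24 ± 0.0659, adjusted p = 0.146). ND4 stood at 3480, 3300 and 3200 CPM against 3620, 4420 and 3940 CPM (-0.26 ± 0.0721, adjusted p = 0.143). All 3 were separated, and V560F replicate 2 was the highest library for ND4 and ND5 but not for COX1. Against wild-type OPA1, the list medians were 0.057 for V560F and -0.198 for V465F. ND3, with a value of -1.58, rested on 1 library, as it stood at 4.39, 4.84 and 3.53 CPM in V465F and 2.81, 31.0 and 4.14 CPM in V560F.

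Genes of mitochondrial fusion, fission and cristae, the process in which OPA1 acts, did not lean one way. Of 35 tested, 15 were above 0 and 20 below (57.1%, against 53.2% of all genes), with a median of -0.0302 that was 0.0106 after the correction and -0.062 without V560F replicate 3. None was called. Slc25a46, an outer membrane protein that interacts with the fusion machinery, stood at 23.6, 21.2 and 18 CPM in V465F and 16.9, 15.4 and 17.4 CPM in V560F (0.34 ± 0.106, edgeR adjusted p = 0.151). It was separated, and it overlaps B930094E09Rik on the other strand. Mfn2, a mitofusin of the outer membrane, stood at 79.9, 70.2 and 73.0 CPM against 68.0, 60.0 and 65.6 CPM (0.21 ± 0.0736, adjusted p = 0.173). Its V465F libraries were all higher, while wild-type OPA1 libraries had a mean of 95.6 CPM. Fis1, of the fission machinery, was at -0.23 and Phb2, a prohibitin of the inner membrane, at -0.21, both without overlap.

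Protein quality control in the mitochondrial matrix held 2 genes that were higher with V465F. Lonp1, the matrix protease that degrades damaged proteins, stood at 175, 163 and 170 CPM in V465F and 138, 136 and 137 CPM in V560F. The gap between the groups was wide beside the spread within them (0.31 ± 0.0647, edgeR adjusted p = 0.107; 0.0262 after the correction, where the value was 0.31). Trap1, the mitochondrial HSP90, stood at 95.4, 95 and 91.3 CPM against 85.9, 80.3 and 72.3 CPM (0.24 ± 0.0678, edgeR adjusted p = 0.147; corrected 0.27, adjusted p = 0.0493); it overlaps Dnase1 on the other strand. These were the 2 members called after the correction among 28 tested, where 0.153% of all genes were called higher. The rest of the list, mostly small import subunits such as Tomm7 (-0.30) and Tomm20 (-0.20), lay mainly below 0, with 22 of 28 there and a median of -0.145. That median was -0.012 after the correction. It was -0.0367 without V560F replicate 2, with 17 of 28 below 0. Of mitochondrial ribosomal protein genes 63 of 76 were below 0, with a median of -0.109 (corrected -0.0293). The median was -0.0145 without V560F replicate 2, with 41 of 76 below 0, and without V560F replicate 3 it was -0.167.

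No death or survival gene was called. Of 22 pro-apoptotic genes, 16 were below 0 and 2, Casp2 and Casp8, had libraries that did not overlap, both lower, where 10.9% of all genes were. The median was -0.125, and it was -0.0627 after the correction and -0.0662 without V560F replicate 2. Casp2, an initiator caspase, stood at 54.2, 59.4 and 64.1 CPM in V465F and 64.8, 67.6 and 75.0 CPM in V560F (-0.22 ± 0.0782, edgeR adjusted p = 0.170). The closest libraries were less than 1 CPM apart. Bax, which permeabilises the outer mitochondrial membrane, was at 31.3, 30.5 and 34.2 CPM against 26.2, 32.2 and 25.0 CPM, and its groups overlapped. Bak1, its relative, was at -0.23 and also overlapped. Of 13 anti-apoptotic genes, 9 were below 0 (median -0.0279), and 11 after the correction (median -0.0938). The median lay between -0.133 and -0.0213 with 1 library left out and turned to 0.0643 with plain library totals. Mcl1, which restrains Bak1, stood at 159, 162 and 167 CPM against 168, 199 and 185 CPM (-0.18 ± 0.0641, adjusted p = 0.173).

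The integrated stress response, which mitochondrial damage can start through phosphorylation of eIF2alpha, held members on both sides of 0. Of 38 members tested, 15 were above 0 and 23 below, with 17 and 21 after the correction. Libraries were separated higher for 4 and lower for 6, where 7.43% and 10.9% of all genes were. Aldh1l2, a mitochondrial enzyme of folate metabolism that overlaps D10Wsu102e on the other strand, stood at 123, 111 and 112 CPM in V465F and 92.1, 79.5 and 91.7 CPM in V560F (0.39 ± 0.0719, edgeR adjusted p = 0.0716). Wars, the tryptophanyl-tRNA synthetase, stood at 66.9, 53.1 and 58.7 CPM against 48.0, 38.5 and 40.8 CPM (0.49 ± 0.10, adjusted p = 0.0909). Both were separated, and both were called higher after the correction (adjusted p = 0.0262 each). Wild-type OPA1 libraries had 102 ± 5.09 CPM of Aldh1l2 and 59.0 ± 8.04 CPM of Wars, beside a V465F mean of 59.6 ± 6.96 CPM for Wars. Pycr1, an enzyme of proline synthesis, was at 0.28, also without overlap.

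Atf5, Trib3 and Ppp1r15a of the same list had values below 0, and none of them was called. Atf5, a transcription factor of the mitochondrial unfolded protein response, stood at 86.7, 83.6 and 85.6 CPM in V465F and 93.8, 116 and 100 CPM in V560F (-0.28 ± 0.0807, edgeR adjusted p = 0.149), and it overlaps Il4i1 and Nup62 on the other strand. Trib3, a pseudokinase that dampens the response, stood at 100, 101 and 106 CPM against 110, 149 and 120 CPM (-0.30 ± 0.0880, adjusted p = 0.149). Ppp1r15a (GADD34), which recruits the phosphatase of eIF2alpha, was at -0.24 and overlaps Tulp2. All 3 were separated, with V560F replicate 2 the highest. The median of the list was -0.0348 (corrected -0.0228) and turned to 0.0158 without that library, and to 0.0595 with plain library totals. In the endoplasmic reticulum unfolded protein response 14 of 26 were above 0, and 13 after the correction, but 20 without V560F replicate 2. In it Sel1l, of the degradation machinery, was at 0.25 and the chaperone gene Dnajb9 at -0.27, both separated.

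Immediate early genes, which respond to growth factor and stress signals within minutes, lay lower with V465F. Of 28 tested, 23 were below 0 and 5 above, with a median of -0.136 that was -0.169 after the correction, and 5 were separated, all lower, where 10.9% of all genes were. Ier2 stood at 29.3, 31.9 and 33.3 CPM in V465F and 37.8, 49.2 and 37.0 CPM in V560F (-0.39 ± 0.0991, edgeR adjusted p = 0.127). Junb, an AP-1 subunit, stood at 37.4, 45.3 and 52.3 CPM against 59.1, 73.1 and 51.4 CPM, so that 1 V465F library lay above 1 of V560F (-0.44 ± 0.112, adjusted p = 0.127). Fos, its partner, overlapped too, at 16.6, 23.9 and 26.7 CPM against 26.4, 29.9 and 24.7 CPM. Both groups exceeded the wild-type OPA1 mean of 9.33 CPM for Fos and 27.9 CPM for Junb. Without V560F replicate 2 the median was -0.0528, with 17 of 28 below 0.

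Of 17 NF-kB targets, 1, Nfkbia, was called lower with V465F, and that after the correction, where 0.268% of all genes were called lower. Nfkbia, the inhibitor that ends NF-kB signalling, stood at 179, 192 and 202 CPM in V465F and 221, 278 and 220 CPM in V560F (-0.33 ± 0.0817, edgeR adjusted p = 0.127; corrected -0.26, adjusted p = 0.0455). Cxcl1, a chemokine, stood at 3.99, 4.46 and 5.22 CPM against 6.77, 7.37 and 6.64 CPM (-0.60 ± 0.229, adjusted p = 0.184). Both were separated, and in wild-type OPA1 libraries their means were 101 and 2.27 CPM, below either mutant. Of the list 12 were below 0 and 5 above, with a median of -0.0416 and a corrected median of -0.0931. It was -0.131, -0.123 and -0.109 without V465F replicate 1, V560F replicate 1 and V560F replicate 2, and its sign turned to 0.0517 with plain library totals and to 0.027 with the filter of 5 FPKM. Among sensors of nucleic acid and interferon genes, 17 of 35 were above 0, and 16 after the correction. Eif2ak2 (PKR), which overlaps Gm26637 on the other strand, stood at 15, 15.1 and 14.8 CPM against 11.7, 12.1 and 11.4 CPM (0.35 ± 0.10, edgeR adjusted p = 0.149), while Irf1 was at -0.25.

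Voltage-gated and other ion channel genes were the list with the highest median with V465F. Of 24 tested, 21 were above 0 and 3 below, with a median of 0.191 (corrected 0.065), and 8 were separated higher and 1, Cacnb3, lower, where 7.43% of all genes were separated higher. Cacna1b, the pore of the N-type calcium channel, stood at 79.3, 89.7 and 83.7 CPM in V465F and 75.2, 50.7 and 71.8 CPM in V560F (0.35 ± 0.0965, edgeR adjusted p = 0.142; corrected 0.23). Its lowest library was V560F replicate 2. Kcnk3, a leak potassium channel, was less marked by that library, at 31.7, 30.5 and 31.0 CPM against 26.6, 27.1 and 23.4 CPM (0.27 ± 0.0888, adjusted p = 0.155). Scn2a, a sodium channel, was at 19.5, 19.4 and 19.5 CPM against 17.9, 13.0 and 16.1 CPM. Channel transcripts are long, and the slope with length was higher in V465F; its part in the result was not tested. Without V560F replicate 2 the median was 0.118, with 19 of 24 above 0.

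Of 34 axon guidance genes, 25 were above 0 and 20 after the correction, with a median of 0.0968 (corrected 0.0225). Of these 4 were separated higher and 1 lower, where 7.43% and 10.9% of all genes were. Nrp2, a receptor of semaphorins, stood at 136, 130 and 123 CPM in V465F and 121, 79.7 and 108 CPM in V560F (0.33 ± 0.102, edgeR adjusted p = 0.149). L1cam, an adhesion molecule of growing axons, was at 0.28 and also separated. In the sympathetic lineage list, 12 of 18 were below 0 and 6 above, up to 0.318. After the correction 13 were below 0, and 10 without V560F replicate 2. Libraries were separated higher for 1 and lower for 3, where 7.43% and 10.9% of all genes were. Phox2a, a regulator of noradrenergic neurons that overlaps Inppl1 on the other strand, stood at 43.9, 44.4 and 41.1 CPM against 52.2, 66.1 and 50.0 CPM (-0.38 ± 0.0889, edgeR adjusted p = 0.119). Dbh, which makes noradrenaline, was at 4.90, 5.43 and 5.97 CPM against 6.6, 8.69 and 8.96 CPM. Both were separated, whereas Hand2 of the same lineage, at -0.107, overlapped.

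Splicing regulators and non-coding hosts of small nucleolar RNAs were lower as lists. Of 29 splicing regulators, 27 were below 0, with a median of -0.15 that was -0.157 after the correction, and 9 were separated, all lower, where 10.9% of all genes were. Hnrnpc, which packages nascent RNA, stood at 544, 520 and 572 CPM in V465F and 579, 725 and 625 CPM in V560F (-0.24 ± 0.0763, edgeR adjusted p = 0.153). Of the 18 hosts and stress non-coding genes, 14 were below 0, with a median of -0.267 (corrected -0.0802) that was -0.136 without V560F replicate 2. Snhg1 stood at 427, 436 and 420 CPM against 460, 634 and 502 CPM, and V560F replicate 2 was again the highest.

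Metabolic lists had medians on both sides of 0. In fatty acid synthesis 10 of 15 were above 0 (9 after the correction) and 4 were separated higher, where 7.43% of all genes were. Elovl6, an elongase of long-chain fatty acids, stood at 66.8, 66.8 and 57.3 CPM in V465F and 52.8, 47.3 and 52.5 CPM in V560F (0.32 ± 0.0786, edgeR adjusted p = 0.120). Fasn, the fatty acid synthase, stood at 677, 682 and 649 CPM against 614, 463 and 625 CPM (0.24 ± 0.0898, adjusted p = 0.180). Both were separated, while Srebf1, which encodes a driver of these genes and overlaps Rai1 on the other strand, was lower, at 188, 180 and 177 CPM against 212, 197 and 200 CPM (-0.16; called after the correction, adjusted p = 0.0456). Among fatty acid oxidation genes, Acot2 had the largest value, at 2.53, 2.85 and 2.88 CPM against 3.96, 4.84 and 4.65 CPM (-0.70 ± 0.186, edgeR adjusted p = 0.134). Glycolysis genes were below 0 in 17 of 22 cases, with a median of -0.157, and in 20 of 22 after the correction, with a median of -0.171. The median was -0.249 without V560F replicate 1 and -0.0644 without V560F replicate 2. Gapdh was at -0.31, and its libraries overlapped.

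The remaining lists had medians between -0.124 and 0.121 and no called member. Without V560F replicate 2 the median of the proteasome went from -0.124 to -0.028 and that of neuronal adhesion from 0.121 to -0.0148. In these, the member with the lowest p was Psma7 (-0.24) for the proteasome, Map1lc3a (-0.44) for mitophagy and autophagy, Polg2 (-0.29) for mitochondrial DNA maintenance and Gpx4 (-0.26) for antioxidant defence. Fh1 (-0.21) led the citric acid cycle, Ddit4 (-0.20) the hypoxia response, Gadd45b (-0.35) the p53 targets and Dnajb1 (-0.21) cytosolic heat shock. Mxi1 (-0.22) led the Myc network, Dusp6 (-0.16) ERK feedback, Ppy (-0.49) the neuropeptides, Npc1 (0.25) the lysosome, Hsd17b7 (0.14) cholesterol synthesis and Smad3 (0.35) the BMP and SMAD list. In neuronal adhesion it was Nlgn3 (-2.93), a gene of at most 0.55 CPM in the 6 libraries. All of these had libraries that did not overlap, and their edgeR adjusted p lay between 0.120 and 0.265. A second gene lies across Nlgn3 on its own strand, and one on the opposite strand across Polg2, Mxi1, Npc1, Tk1, Cdc45, Ccna2, Cdc20, H1f0, Phb2, Bak1, Irf1, Dnajb9 and Hand2.

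**Figure D5:**
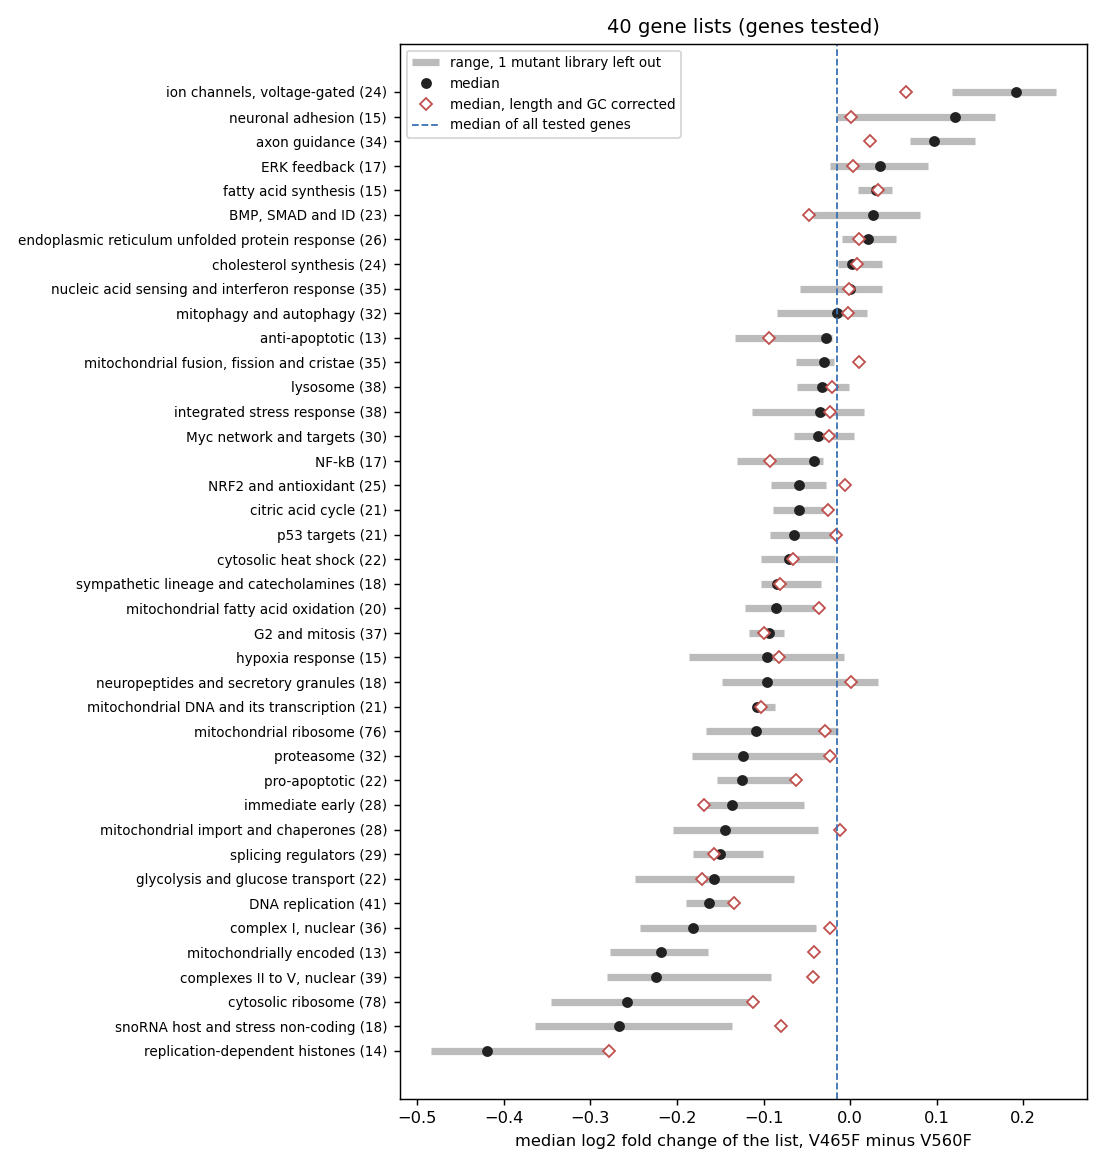
Median log2 fold change, V465F minus V560F, of the 40 gene lists (black points), its range with 1 mutant library left out (grey bars) and the median after the length and GC correction (red diamonds). Numbers in brackets are the genes tested, the dashed line is the median of all tested genes, and replication-dependent histones lie lowest at -0.419 and ion channels highest at 0.191.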

How the data were processed

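RNA of mouse N2a cells was sequenced in 15 libraries of 5 groups. Per the labels, RNA was taken up in TRIzol and made into libraries with the VAHTS Universal V6 kit. The build was GRCm39 and the tools HISAT2, HTSeq, fastp and R 3.2.0, per the submitters' processing notes. The aligner's version, the annotation and the strand setting are not given in the sources used here. The authors deposited raw counts and FPKM for 22507 genes, and the deposited FPKM equal counts over gene length and table total (largest relative gap 1.14e-06).

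Counts were tested with edgeR 4.0.16 (limma 3.58.1, R 4.3.3; TMM scaling, low-count filter, quasi-likelihood) over all 15 libraries, with the contrast V465F minus V560F and Benjamini-Hochberg adjustment over 13074 genes, at a threshold of 0.05. The fit had 10 residual degrees of freedom and a biological coefficient of variation of 8.216%. Total counts of 20070123 to 22215748 per library limit precision for scarce genes. Within each mutant group, no 2 libraries agreed within sampling noise, and other pairs were not compared in this way. The corrected fit used as offsets the spline trends (5 degrees of freedom each) of a library's levels on gene length and on GC content, the latter from GENCODE M21 for 12510 tested genes (95.7%). DESeq2 1.42.0, voom with array weights and the other settings made up 18 alternatives, and the scripts were tested on simulated data.

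The comparison, the 40 gene lists and the 6 marker lists were chosen with earlier results of these data known, so lists are described by counts and medians without a test. Genes named by rule, 41 in all, were Opa1, the called gene and, in each list, the member with the lowest p (up to 3 where called). Other genes were named after their values were seen. Some genes that the rule or the lists hold are not reported here.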

Additional observations from a re-analysis of the deposited data

How the results depend on the processing

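The number of called genes depended on the setting. In place of 1 gene, edgeR called 6 (5 higher, 1 lower) with plain library totals, 580 (243 and 337) with no low-count filter, 7 (5 and 2) with a filter of 5 FPKM in 3 libraries and 55 (20 and 35) with the length and GC correction. DESeq2 called 144 (48 and 96), voom with array weights 2 (0 and 2), and DESeq2's size factors in edgeR left the count at 1. With only the 6 mutant libraries fitted, edgeR called 0, with 1362 at an unadjusted p under 0.05. With 1 mutant library left out, edgeR called 0 to 818 genes (0 to 322 higher, 0 to 496 lower). The highest count came without V560F replicate 1, and the count was 0 without V465F replicate 1, V465F replicate 2 or V560F replicate 3. With the correction but without V560F replicate 2, a setting chosen after seeing the data, it was 10 (2 and 8).

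Deviations of V465F and V560F libraries with the same replicate number had r = 0.0623, -0.0206 and -0.0117 for numbers 1 to 3. Pairs with different numbers had r of -0.0454 to 0.049. Whether a replicate number marks a shared batch was not tested. With replicate number as a block, edgeR called 3 genes (1 higher, 2 lower) over 15 libraries, 0 over the 6 (1304 at an unadjusted p under 0.05) and 358 (112 and 246) with the block and the correction together.

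The Opa1 difference, 0.0836, ranged from -0.0181 to 0.171 with 1 library left out and was -0.0263 with the correction and without V560F replicate 2. Leaving out 1 library gave group differences of 0.0611 to 0.317 for the slope with length, -0.703 to -0.492 percentage points for mitochondrially encoded genes, -1.86 to -1.05 for the 50 most abundant genes, -14.3 to -5.26 for the principal component score and -162000 to 1030000 for the total count.

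Of the 40 list medians, 15 changed sign with plain library totals, which moved the median of all genes from -0.0157 to 0.0761, 7 without V560F replicate 2, 3 with the correction and 0 with DESeq2. The cause was not tested for any of these shifts.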

Other observations

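The 55 genes called by edgeR with the length and GC correction included several outside the gene lists, picked here after their values were seen. Of the 55, 36 were also among the 144 called by DESeq2, which is 65.5% of the first list and 25.0% of the second. In the values that follow, the log2 fold change and adjusted p come from the corrected edgeR fit. The libraries of the groups do not overlap for any gene named. The uncorrected edgeR fit called none of these genes, with adjusted p between 0.107 and 0.149. On the lower side, H3f3b, which encodes the replication-independent histone H3.3, stood at 703, 766 and 817 CPM in V465F and 848, 1130 and 962 CPM in V560F (-0.323, adjusted p = 0.0455). H2az2, a gene of the variant histone H2A.Z, stood at 59.0, 61.5 and 71.3 CPM against 73.8, 104 and 82.8 CPM (-0.36, adjusted p = 0.0456). Dtl, part of the ubiquitin ligase that degrades CDT1 in S phase, stood at 60.7, 68.0 and 70.5 CPM against 78.7, 88.0 and 94.6 CPM (-0.408, adjusted p = 0.043). For all of these the highest V465F library was below the lowest of V560F. Paics, an enzyme of purine synthesis that overlaps Ppat on the other strand, stood at 275, 293 and 296 CPM against 329, 369 and 346 CPM (-0.23, adjusted p = 0.0493).

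Genes of membranes and transport were called in both directions by the corrected fit. Stim1, the calcium sensor of the endoplasmic reticulum, was lower with V465F, at 43.3, 48.8 and 52.4 CPM against 55.3, 56.8 and 59.8 CPM (-0.339, adjusted p = 0.0456). Tyro3, a receptor tyrosine kinase, stood at 13.7, 14.4 and 14.9 CPM against 16.7, 22.5 and 19.5 CPM (-0.519, adjusted p = 0.0455). Ucp2, a carrier of the inner mitochondrial membrane, was higher with V465F, at 117, 105 and 114 CPM against 95.3, 92.7 and 87.7 CPM (0.346, adjusted p = 0.0456), and it overlaps Dnajb13 on the other strand. Flvcr1, a transporter of choline and heme that overlaps A230020J21Rik on the other strand, stood at 25.2, 23.5 and 20.3 CPM against 17.2, 17.7 and 15.3 CPM (0.44, adjusted p = 0.0455). The spread within either group of Ucp2 and Flvcr1 was smaller than the gap between the group means. DESeq2 called neither Ucp2 (adjusted p = 0.0642) nor Stim1 (adjusted p = 0.0601). Vps35l, of the retriever complex that recycles membrane proteins, stood at 70.1, 68.4 and 67.7 CPM against 54.6, 50.6 and 51.6 CPM (0.375, adjusted p = 0.0455), and it too overlaps a gene on the other strand.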
